A study of Mus musculus with 45 samples.

Results

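The loading of mRNAs on polysomes was compared between Ter119+ cells of VavCre Rps19flox/+ and Rps19flox/+ fetal livers. Loading is the difference, within 1 pool of cells, between the log2 value of an mRNA in the polysome fraction and its log2 value in the cytoplasm fraction. The change in loading is the mean of the 3 VavCre Rps19flox/+ pools minus the mean of the 3 Rps19flox/+ pools, which are the controls here. The comparison uses 12 of the 45 libraries of the series, and 10534 of the 13449 genes in the table had a mean normalized count of at least 10 over these 12 libraries and were tested.

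Livers were taken at E15.5 of embryonic development from mice in which the father carried a floxed Rps19 allele on each chromosome and the mother carried VavCre. Vav drives Cre in blood cells, so a VavCre Rps19flox/+ embryo can lose 1 copy of Rps19 there, while an Rps19flox/+ embryo carries the floxed allele without Cre. Ter119 marks maturing red cell precursors, and Ter119+ cells were taken with magnetic beads from the cells left after removal of the Kit+ cells. All groups were treated with emetine (25 µg/mL for 15 min), which holds ribosomes on mRNA, and cells were pooled by genotype, so a replicate is a pool of livers and p-values measure the spread between pools. The Rpl5 line, with 3 VavCre Rpl5flox/+ and 2 Rpl5flox/+ Ter119+ pools, served for the estimate of the spread and for a comparison of the lines.

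RPS19 is a protein of the small ribosomal subunit, and loss of 1 copy of its gene causes Diamond-Blackfan anaemia, in which red cell precursors fail to mature. An mRNA that many ribosomes translate at once sediments with the polysomes, while an mRNA that is not translated stays in lighter fractions. The mRNAs of ribosomal proteins begin with a C and a run of pyrimidines, the terminal oligopyrimidine or TOP motif, and move onto or off polysomes together when the mTOR pathway is switched on or off. Loading is relative within each library, and fewer ribosomes per mRNA and fewer mRNA molecules with ribosomes cannot be told apart in it.

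The pools differed in more than genotype. The polysome libraries held 12.6, 16.1 and 4.59 M (mega) reads in the controls and 33.6, 20.5 and 29.6 M in VavCre Rps19flox/+, and the groups did not overlap. Reads on Lars2, the mitochondrial leucyl-tRNA synthetase gene, made up 5.71%, 3.22% and 17.3% of the control polysome libraries against 0.306%, 1.57% and 0.552%. Over the 3715 genes with a mean of at least 500, the range from the 10th to the 90th percentile of loading was 2.99, 1.85 and 2.92 in the control pools and 1.77, 1.35 and 1.44 in the VavCre pools. The mean width was 2.59 ± 0.64 (SD, n = 3) against 1.52 ± 0.22 (n = 3), with an exact two-sided permutation p of 0.1, the smallest that 3 pools against 3 can give. Loading was therefore spread less widely over genes in every VavCre pool, and the part of depth in this was not tested. The summed level of 10 erythroid markers in cytoplasm was 16515800 to 17802600 normalized counts in the controls and 9577080 to 10566300 in VavCre Rps19flox/+, against at most 399.5 for the progenitor markers Kit, Cd34 and Flt3. Most of this sum was globin, with control means of 4827010 for Hba-a1, 7836270 for Hbb-bs and 3771410 for Hbb-bt. Outside the globins, means were 423740 in the controls against 331633 for Slc4a1 and 190859 against 151374 for Alas2. They were 39493 against 19273 for Tfrc, 16673 against 12721 for Klf1 and 15012 against 12829 for Rhag. The summed level of 18 granulocyte and monocyte markers in cytoplasm was 10532 to 21851 in the controls and 2455 to 4390 in VavCre Rps19flox/+, with none of the 18 at 0 in a group, and its part in the results was not tested.

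**Figure D1:**
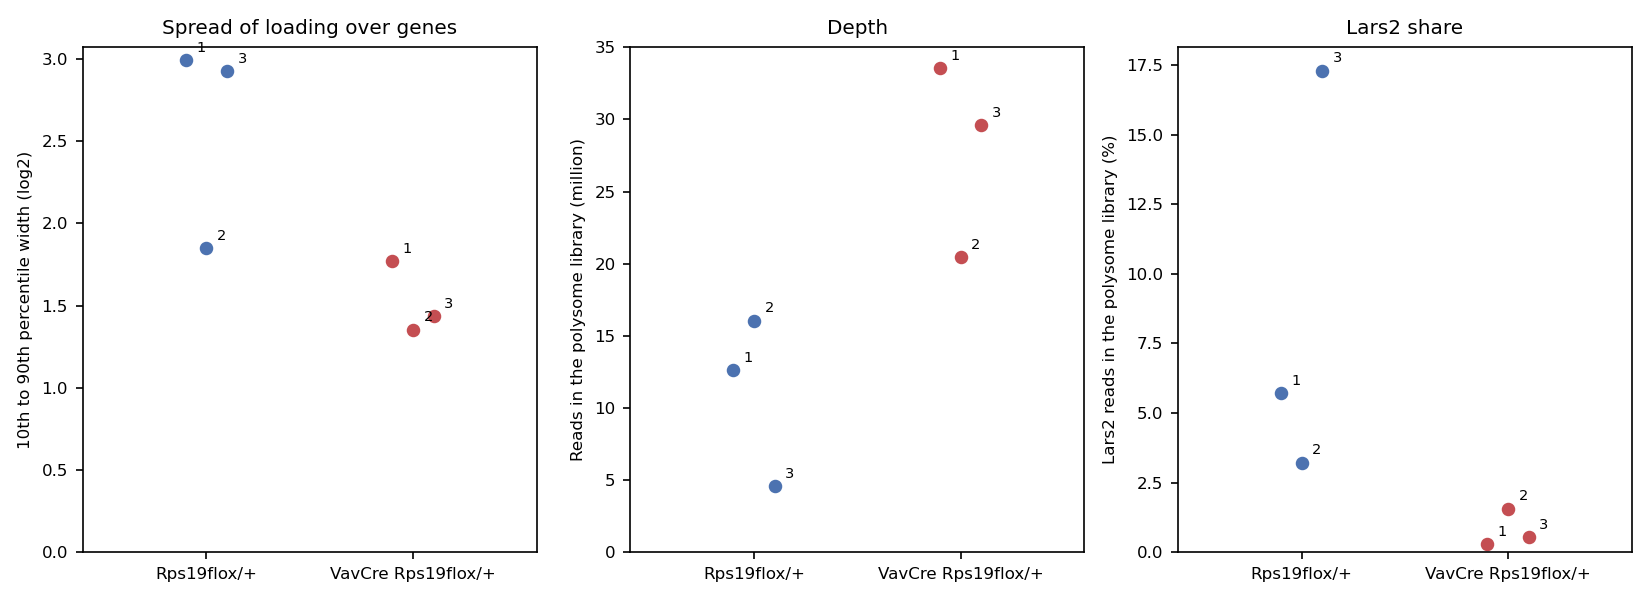
Each point is 1 Ter119+ pool, numbered by replicate, and the panels show the range from the 10th to the 90th percentile of loading over 3715 genes (log2), the reads of the polysome library (M) and the percent of its reads on Lars2. The VavCre Rps19flox/+ pools lie below all controls in width (1.77 at most against 1.85 at least) and in Lars2 share, and above them in reads.

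The first gene to check was Rps19 (chromosome 7, 24884592 to 24889811 in GRCm38.p6). Its loading was 1.30, 1.08 and 1.15 in the control pools and 0.43, 0.12 and 0.48 in the VavCre pools. Every VavCre pool was below every control, and the change of -0.83 ± 0.24 (SE) had an adjusted p of 0.305 (limma, Benjamini-Hochberg over all genes tested). The difference was -1.04 in the polysome fraction (adjusted p = 0.104, limma) and -0.21 in cytoplasm (0.293), so neither passed. Rps19 did not stand apart from the other ribosomal protein mRNAs, of which 17 of 80 changed by under -1.

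Across all genes the median change in loading was 0.55, with 7377 genes above 0 and 3157 below. In 2484 genes (23.6% of those tested) every VavCre pool lay above every control pool, and in 590 (5.6%) every VavCre pool lay below. Among genes with a mean of at least 500 these were 1318 (35.5%) and 305 (8.21%) of 3715. Only 1 gene passed the test at an adjusted p under 0.05 (0.00949%), and 1091 genes (10.4%) had an unadjusted p under 0.05. Of the 11 pools that set the spread, the VavCre Rpl5flox/+ replicate 3 pool had only 1.02 M polysome reads and a width of 8.31. Without this pool, which belongs to neither group compared, the same fit called 130 genes (1.23%), 101 higher (0.959%) and 29 lower (0.275%). With limma voom on the recovered reads, a fit added after seeing the data that weights each value by its precision, 82 genes passed (0.778%), 48 higher (0.456%) and 34 lower (0.323%). The 2 sets shared 52 genes, 40% of the first and 63.4% of the second, all in the same direction. A gene is said below to rise or fall only with the fit or fits it passed named, where the shallow pool is the VavCre Rpl5flox/+ replicate 3 pool.

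The mRNAs of ribosomal proteins were the clearest group with lower loading. Of the 32 small-subunit genes tested besides Rps19, the median change was -0.58, and 31 lay below the median of all genes. In 22 of the 32 every VavCre pool was below every control pool and in 0 every one was above. Of the 48 large-subunit genes the median change was -0.42, 43 lay below the median of all genes, 23 had all VavCre pools below the controls and 4 had all above. Among genes with a mean of at least 500 the shares were 8.21% below and 35.5% above. The median loading of the small-subunit mRNAs was 1.06, 0.90 and 0.88 in the control pools and 0.65, 0.087 and 0.43 in the VavCre pools. For the large-subunit mRNAs it was 0.90, 0.76 and 0.76 against 0.60, 0.067 and 0.46. Neither list overlapped between genotypes. In both groups ribosomal protein mRNAs were loaded above the median mRNA, by less in the VavCre pools. This is also the direction of the narrower range of loading in the VavCre pools, and the part of that narrowing was not tested.

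No member of either list passed the main fit. Without the VavCre Rpl5flox/+ replicate 3 pool in the spread, 4 small-subunit and 8 large-subunit mRNAs fell and 1 large-subunit mRNA, Rpl10, rose. With voom 9 and 10 fell and 1, Rpl4, rose. In the polysome fraction alone 5 of all genes rose (0.0475%) and 7 fell (0.0665%), and in cytoplasm 1364 rose (12.9%) and 1423 fell (13.5%), by limma. Among those 7 on polysomes were Rps21, Rplp1 and Rpl41. Both lists were lower on polysomes (medians -0.78 and -0.54) with little difference in cytoplasm (-0.081 and -0.027). With the log2 of the polysome reads as a covariate the list medians were -0.60 and -0.59 against -0.042 for all genes, and with the Lars2 share as a covariate -0.73 and -0.64 against -0.038. Each of these covariate fits called only 1 gene, the same as the main fit, and no ribosomal protein mRNA.

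**Figure D2:**
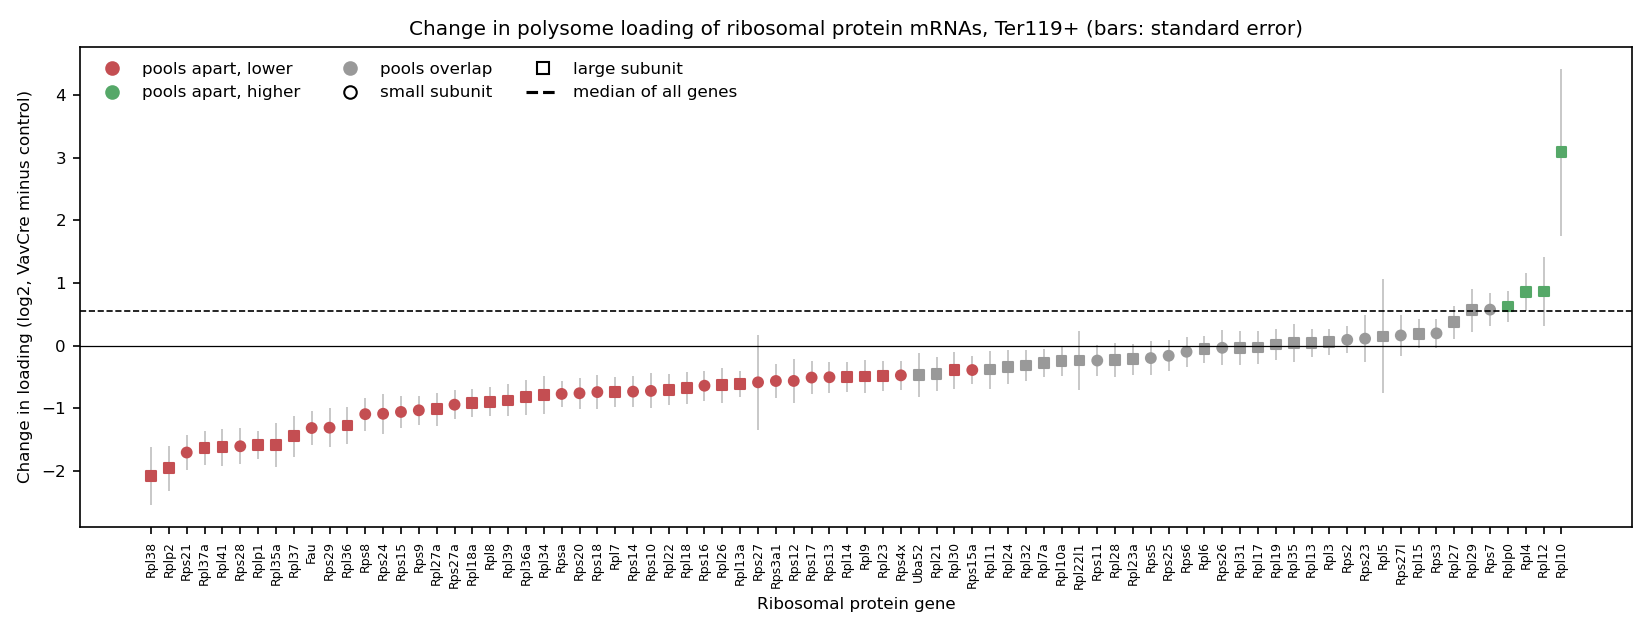
The change in loading (log2, VavCre minus control) of 32 small-subunit (circles) and 48 large-subunit (squares) ribosomal protein mRNAs in order, with the standard error of the fit as bars. Red marks mRNAs with every VavCre pool below every control pool (45), green those with every pool above (4), and the dashed line is the median of all genes, 0.55, which 74 of the 80 lie below.

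The P-stalk, which recruits elongation factors to the ribosome, held members at both ends. Rplp1 (chromosome 9, start 61913283) had normalized counts on polysomes of 97521, 85544 and 115354 in the controls and 31337, 32702 and 28405 in VavCre Rps19flox/+. In cytoplasm they were 25875, 27806 and 34396 against 24197, 31832 and 26546. All polysome values of the VavCre pools were far below the controls, and the cytoplasm values overlapped. Its loading was 1.91, 1.62 and 1.75 against 0.37, 0.039 and 0.098, a change of -1.59 ± 0.22 (adjusted p = 0.105 by limma, 0.0308 without the shallow pool, 0.00299 by voom). The loading of Rplp2, the partner of Rplp1, was 3.02, 2.07 and 3.30 against 1.12, 0.50 and 0.89, a change of -1.96 ± 0.37. Rplp0, the base of the stalk, went the other way, at -1.11, -0.55 and -1.49 against -0.31, -0.45 and -0.52, a change of 0.63 ± 0.25 (adjusted p = 0.425 by limma) that was close to the median of all genes.

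Among the ribosomal protein mRNAs the largest negative changes were those of Rpl38 (-2.08 ± 0.46), Rplp2, Rps21 (-1.71 ± 0.28), Rpl37a (-1.64 ± 0.27), Rpl41 (-1.63 ± 0.29), Rps28 (-1.61 ± 0.29), Rplp1 and Rpl35a (-1.59 ± 0.35). All of these fell by voom and without the shallow pool. Of the 80 mRNAs 17 had a change above 0, among them Rpl4 (0.86), Rpl3 (0.058) and Rplp0 (0.63). The changes were not split by protein length. Rps21 was loaded at 2.80, 2.24 and 2.71 in the controls and 1.17, 0.58 and 0.87 in the VavCre pools, and Rpl41 at 2.58, 2.14 and 1.61 against 0.93, 0.32 and 0.20. Rpl38, which has been studied for its role in the translation of selected mRNAs, was at 3.30, 2.16 and 3.60 against 1.39, 0.37 and 1.04. Of the 80 mRNAs, 17 had a change under -1, and in all 17 the pools did not overlap. Fau, which encodes a ubiquitin-like protein fused to a small-subunit protein, changed by -1.32 ± 0.27, falling by voom (adjusted p = 0.0201) and without the shallow pool (0.0434). Rpl10 had the largest positive change of the 80, 3.09 ± 1.33. Reads of these genes can also match their processed pseudogenes, which makes single values uncertain.

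**Figure D3:**
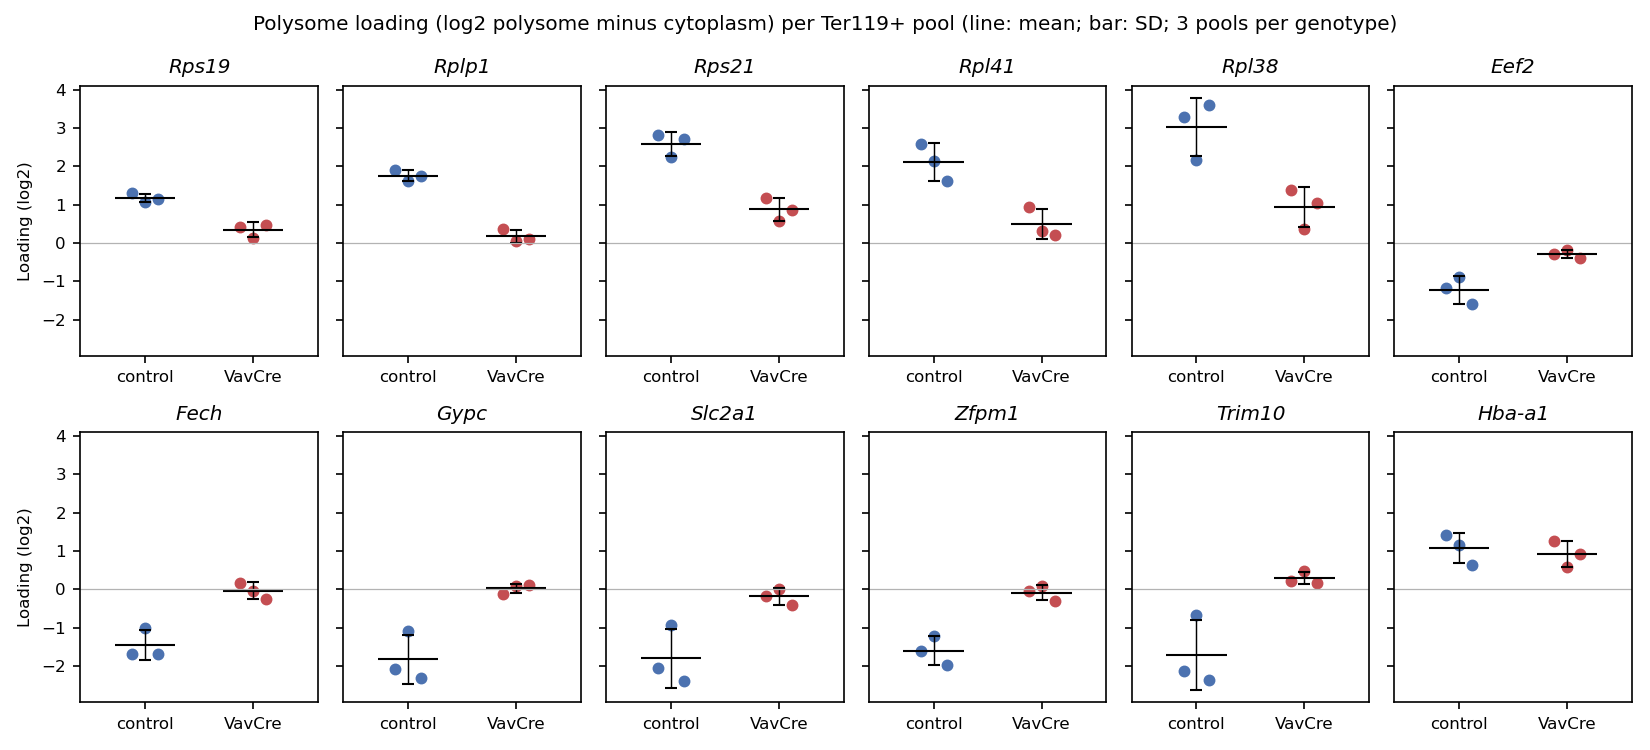
Each point is the loading (log2 polysome minus cytoplasm) of an mRNA in 1 pool, with lines for the mean and bars for the SD of 3 pools per genotype. Rps19, Rplp1, Rps21, Rpl41 and Rpl38 are above 1 in all controls and lower in all VavCre pools, Eef2, Fech, Gypc, Slc2a1, Zfpm1 and Trim10 are below 0 in all controls and higher in all VavCre pools, and Hba-a1 overlaps. Rplp1, Rps21, Rpl41, Fech, Gypc and Trim10 were chosen among genes whose pools do not overlap, so their separation is not a separate result.

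The start of the gene was set beside these changes because the TOP motif marks this class of mRNA. RefSeq (GRCm38.p6) gave a start for 8472 of the genes tested, 60 of them ribosomal protein genes. A gene can have several starts listed, and a motif at any of them counted. A start of C and 4 more C or T bases, read on the strand of the gene, was found for 14 of these 60 (23.3%), for 231 of 8412 other genes (2.75%) and for 2.5% of all starts in the table. Annotated starts can lie some bases from those used in these cells. The 30 bases around the first start listed for a gene (10 before it and 20 from it) are given below for mRNAs at both ends. Capitals mark the run of C and T bases where the start is a C.
Rplp2 (chr7:141447641-141447670, + strand): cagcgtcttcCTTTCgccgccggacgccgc
Rpl38 (chr11:114668570-114668599, + strand): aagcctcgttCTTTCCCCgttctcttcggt
Rps28 (chr17:33824543-33824572, - strand): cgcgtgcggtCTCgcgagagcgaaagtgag
Rplp0 (chr5:115559457-115559486, + strand): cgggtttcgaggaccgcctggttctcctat
Eef2 (chr10:81176621-81176650, + strand): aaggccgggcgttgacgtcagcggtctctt
Slc2a1 (chr4:119108735-119108764, + strand): cgggcccacctacaccccagaaccaatggc

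The runs of Rplp2 and Rpl38 at these starts are 5 and 8 bases long. Rps28, with a change of -1.61, has a run of 3. The span of the Rpl38 gene begins upstream of the start used, at 114667818. Among genes with a mean of at least 500 outside the ribosomal proteins, the median change was 0.51 for the 91 with the motif and 0.49 for the 2907 without. Among the ribosomal protein genes it was -0.66 for the 14 with the motif and -0.48 for the 46 without. Outside the ribosomal proteins the mRNAs with and without the motif thus had nearly the same median. The annotated starts showed the motif for only 14 of 60 ribosomal protein genes, and Rplp0 and Eef2, also of the TOP class, had no run. The groups without the motif can therefore hold TOP mRNAs, and these medians cannot decide whether the change follows the motif.

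Other mRNAs of the translation machinery also lay mostly below the median of all genes, by less than the ribosomal proteins. Among 24 translation factors and other mRNAs of the TOP class the median change was 0.0072, which is 0.54 under that of all genes, and 21 of the 24 were below it. In 7 all VavCre pools were above the controls and in 4 all were below. Among genes with a mean of at least 500 the shares were 35.5% above and 8.21% below. Eef2, which moves the ribosome along the mRNA, was at -1.17, -0.89 and -1.60 in the controls and -0.29, -0.18 and -0.38 in the VavCre pools, a change of 0.94 ± 0.22 that passed with voom alone (adjusted p = 0.0326). Eef1a1, which brings tRNA to the ribosome, changed by 0.48 ± 0.21. Eef1d, of the exchange factor of Eef1a1, was at 1.62, 0.36 and 1.69 against 0.21, -0.68 and -0.28, a change of -1.48 ± 0.39 with no overlap (adjusted p = 0.292 by limma). Of 39 ribosome biogenesis genes 31 lay below the median of all genes, with a median of 0.092. Of these 39, 7 lay wholly higher and 3 wholly lower, beside 23.6% and 5.6% of all genes. The 3 with lower pools included Eif6 (-1.39), which keeps the subunits apart, and Pes1 (-0.91).

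Nuclear mRNAs of the oxidative phosphorylation complexes also lay low, while the median of those of mitochondrial ribosomal proteins was near 0. Of 27 oxidative phosphorylation mRNAs tested, all 27 lay below the median of all genes, with a median of -0.39, 12 wholly lower and 0 wholly higher. Beside this and the lists that follow stand 8.21% wholly lower and 35.5% wholly higher among genes with a mean of at least 500. The median loading of the oxidative phosphorylation list overlapped between genotypes, at 1.28, 1.02 and 1.08 in the controls and 1.18, 0.54 and 0.98 in the VavCre pools. Of 30 mitochondrial ribosomal protein mRNAs 21 lay below the median of all genes, with a median of 0.043, 15 above 0, 6 wholly higher and 3 wholly lower. Mrpl18 stood at 1.47 ± 0.41. Ndufb7, a subunit of complex I, was at 2.87, 1.71 and 2.63 in the controls and 1.24, 0.56 and 1.09 in the VavCre pools (-1.44 ± 0.37), and fell by voom alone (adjusted p = 0.0463). Ndufa2 (-1.39), Ndufa3 (-1.19) and Uqcrh (-1.07) did not overlap either. Of 31 proteasome mRNAs 7 lay wholly lower and 5 wholly higher (median -0.13), with Psmd13 at -1.47 and Psmd2 at -1.31. Of 13 mRNAs encoded by the mitochondrial genome, which are not translated by cytoplasmic ribosomes, mt-Co1 stood at 1.99 ± 0.51, passing with voom alone (adjusted p = 0.0473), and mt-Co3 at -2.46 ± 0.93.

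**Figure D4:**
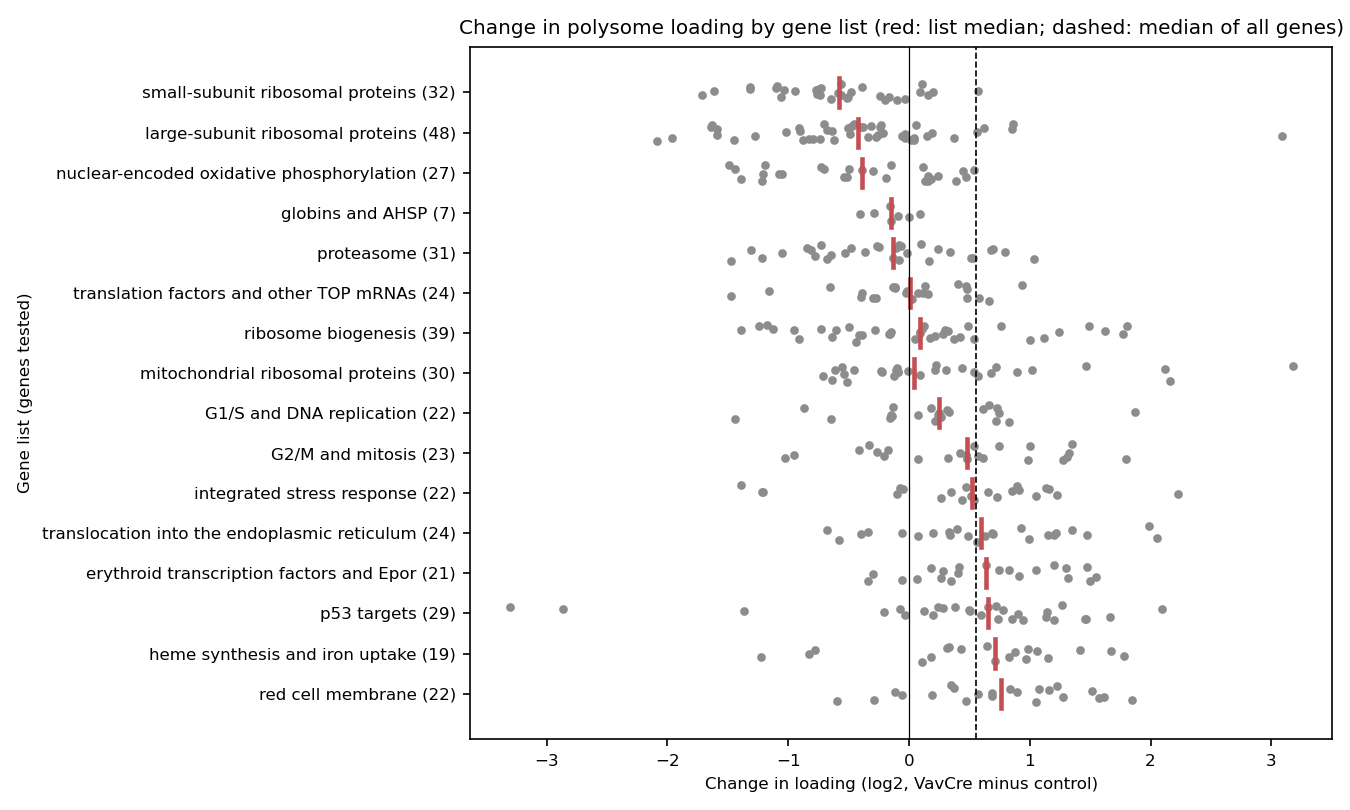
Each point is the change in loading (log2, VavCre minus control) of 1 gene, by list, with the number of genes tested in parentheses, red lines for list medians and a dashed line for the median of all genes (0.55). The lists of ribosomal proteins and of oxidative phosphorylation lie to the left, at medians of -0.58, -0.42 and -0.39, and the red cell membrane list has a median of 0.76.

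Erythroid mRNAs differed by group, with the medians of the heme and membrane lists above that of all genes and all 7 globin and AHSP mRNAs below it. Of 19 genes of heme synthesis and iron uptake 10 lay wholly higher and 3 wholly lower, with a median of 0.71. Of genes with a mean of at least 500, 35.5% lay wholly higher and 8.21% wholly lower. Fech, which inserts iron into the heme ring, was at -1.68, -1.01 and -1.67 in the controls and 0.18, -0.035 and -0.26 in the VavCre pools, a change of 1.42 ± 0.21. It rose by voom (adjusted p = 0.00394) and without the shallow pool (0.0352), with an adjusted p of 0.125 in the main fit. Cpox, another enzyme of the pathway, changed by 0.99 ± 0.23 and rose by voom alone. Alad, which acts early in the pathway, was at 1.47, 0.17 and 1.15 against -0.036, -0.54 and -0.32, a change of -1.23 ± 0.34. Slc25a37, the mitochondrial iron importer, stood at 1.78 ± 0.52, and Alas2, the first enzyme of the pathway in red cells, at 0.18 ± 0.32 with overlapping pools. Alas2 turned negative with the libraries rescaled or with either covariate. Fth1, a ferritin chain whose mRNA carries an iron-responsive element, changed by 1.44 ± 0.44 and rose by voom alone (adjusted p = 0.0463).

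Of 22 red cell membrane genes 15 lay wholly higher and 0 wholly lower (median 0.76). The shares among genes with a mean of at least 500 were 35.5% and 8.21%. Gypc, a glycophorin that anchors the membrane skeleton, was at -2.06, -1.09 and -2.30 in the controls and -0.11, 0.079 and 0.12 in the VavCre pools. Its change of 1.85 ± 0.32 was a rise by voom (adjusted p = 0.0201) and without the shallow pool (0.0308). Slc2a1, the glucose transporter, was at -2.06, -0.94 and -2.39 against -0.17, 0.021 and -0.40, a change of 1.62 ± 0.36, and also rose in both fits. Slc4a1, the band 3 anion exchanger, was at -1.44, -1.03 and -1.70 against -0.96, -0.78 and -1.03, a change of 0.47 ± 0.19 that was below the median of all genes. With the polysome reads as a covariate the changes of Fech, Gypc and Slc2a1 were 1.35, 1.71 and 1.31, while the median of the membrane list was 0.38. None of these mRNAs passed in that fit. Fech, Gypc and Slc2a1 were below 0 in all controls, so their rises run in the direction of the narrower range, whose part was not tested.

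Of 21 erythroid transcription factors and Epor 9 lay wholly higher and 1 wholly lower, beside 35.5% and 8.21% of genes with a mean of at least 500, and the median of 0.64 was close to that of all genes. Zfpm1, the cofactor of GATA1, was at -1.60, -1.21 and -1.97 in the controls and -0.048, 0.080 and -0.30 in the VavCre pools (1.50 ± 0.30), and rose by voom (adjusted p = 0.0208) and without the shallow pool (0.0308). Tal1 changed by 1.30, E2f4 by 1.20 and Lmo2 by 0.91. Gata1, the master regulator of red cell genes, was at -0.37, -0.33 and -0.40 against 0.061, -0.18 and -0.11. Its pools did not overlap, but the change of 0.28 ± 0.31 (adjusted p = 0.771 by limma) was below the median of all genes and turned negative with the libraries rescaled and with either covariate. Klf1 was at 0.64 ± 0.34. Bag1, whose mRNA has been linked to ribosomal protein loss in red cell precursors, changed by 0.43 ± 0.32 with overlapping pools, also below that median. Lower loading of Gata1 or Bag1 with VavCre was not detected at this spread, although the sign of both depended on scaling.

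The mRNAs of globins had no change that set the groups apart. None of the 7 tested, AHSP included, had pools that did not overlap. The median was -0.15, and all 7 lay below the median of all genes. Hba-a1 was loaded at 1.42, 1.16 and 0.65 in the controls and 1.27, 0.58 and 0.92 in the VavCre pools. Among mRNAs of organelle clearance and late maturation, Trim10 was at -2.12, -0.67 and -2.35 against 0.23, 0.48 and 0.18, a change of 2.01 ± 0.39 that was a rise by voom (adjusted p = 0.0201) and without the shallow pool (0.0434). Bnip3l, needed to clear mitochondria, changed by 1.59 ± 0.45 and rose without the shallow pool alone (adjusted p = 0.0488), and Map1lc3b stood at 1.21 ± 0.37.

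Most targets of p53 were higher in cytoplasm with VavCre. Of 29 tested, 19 rose and 2 fell in cytoplasm and 2 rose on polysomes (limma). Their median change in loading, 0.65, was close to that of all genes, and 5 lay wholly higher and 1 wholly lower, beside 23.6% and 5.6% of all genes. Cdkn1a, which encodes the cell cycle inhibitor p21, rose by 6.89 on polysomes (adjusted p = 0.000208) and 6.39 in cytoplasm (2.04e-12, both limma), with loading of 0.11, -1.40 and -0.51 against -0.028, -0.17 and -0.076. It had only 29, 11 and 10 polysome reads in the controls, against 10180, 7268 and 9523. Zmat3, an RNA-binding protein induced by p53, rose by 5.22 in cytoplasm (adjusted p = 5.55e-07), and the polysome difference was 2.35 (0.202). Its loading was 2.06, 2.41 and 3.00 against -0.48, -0.73 and 0.077, a change of -2.86 ± 0.65 that fell without the shallow pool alone. The control values of Zmat3 were low, at 21.7, 4.78 and 27.4 normalized counts in cytoplasm and 132, 73.0 and 315 on polysomes. Eda2r, a receptor induced by p53, rose by 4.84 in cytoplasm (adjusted p = 1.27e-05) from under 1 normalized count in each control pool, and its loading change of -3.31 ± 1.34 had overlapping pools. Ccnb1, the mitotic cyclin, stood at 1.80 ± 0.47 and rose without the shallow pool alone.

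The 1 gene that passed the main fit was Gm49342, a gene model with no entry in the RefSeq table. It had 0 reads in each of the 3 control polysome libraries and 1210, 923 and 1111 in VavCre Rps19flox/+. In cytoplasm it had 6371, 3099 and 2099 reads in the controls and 6406, 7413 and 5801 in VavCre Rps19flox/+. Against a floor of 3 reads over the control group, its polysome level was at least 295-fold higher with VavCre (adjusted p of the change in loading 0.000324, limma). Taf9, which overlaps Ak6, and Kcnip2 also had 0 reads in all control polysome libraries, and were at least 62.9-fold and 15.7-fold higher. Srp54b, a near copy of Srp54a, had 0, 5 and 0 reads against 417, 475 and 310. In control cytoplasm Taf9 had 1097, 504 and 267 reads and Kcnip2 had 372, 200 and 128. Such all-or-none patterns are uncertain. Reads of genes that share sequence can be assigned to either copy, and the part of this in these patterns was not tested.

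Hepatocytes are the other main cell type of the fetal liver, and most of their mRNAs had changes below 0. Of 16 tested, 12 lay below 0 and 4 above, with 5 wholly lower and 0 wholly higher (median -0.95). Of all genes 5.6% lay wholly lower and 23.6% wholly higher. The median loading of the hepatocyte list overlapped between genotypes, at 0.14, -0.20 and 1.46 in the controls and -0.43, -0.11 and -0.73 in the VavCre pools. The 11 endothelial and stromal markers tested had a similar median of -0.91, with 1 wholly lower and 0 wholly higher. Apoa2 was at 2.12, 1.73 and 2.60 in the controls and -0.10, -0.071 and -1.24 in the VavCre pools, and Apoa1 changed by -1.89 ± 0.57. Both fell without the shallow pool alone (adjusted p = 0.0434 and 0.0488). The summed level of the 16 was 7551 to 39192 on control polysomes and 7620 to 17426 with VavCre, so the sums overlapped, and none of the 16 was at 0 in a group. With the polysome reads as a covariate the median was -0.22. Mt1, a metallothionein, was at 2.07, 1.78 and 2.63 against 0.98, 0.61 and 1.01, a change of -1.30 ± 0.27 and a fall by voom (adjusted p = 0.0201) and without the shallow pool (0.0488), and it also fell in cytoplasm.

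The same change was then set beside that in Kit+ progenitors of the Rps19 line. In the Kit+ pools the change was -1.67 for Rplp1, -1.59 for Rps21, -2.39 for Rpl38, -0.31 for Rpl41 and -0.13 for Fech. It was 2.90 for Gypc, 2.01 for Slc2a1, 0.97 for Trim10 and 0.71 for Zfpm1, and the median of the membrane list was 0.83, beside 1.16 for all genes. The test of the difference between the cell types called 1 of 10534 genes (0.00949%), with 1036 at an unadjusted p under 0.05. That gene, mt-Atp6, had 0 polysome reads in all 3 Kit+ control pools and 17607, 25522 and 15606 with VavCre. Of the Kit+ control polysome libraries 2 held only 1.01 and 1.83 M reads, which limits this comparison.

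The change was also set beside that in the Rpl5 line, where 1 copy of a large-subunit gene is targeted. The difference between the lines (Rps19 change minus Rpl5 change) passed for 68 genes, 41 higher (0.389%) and 27 lower (0.256%). Among the genes lower were 3 small-subunit and 6 large-subunit ribosomal proteins, and 1 large-subunit gene, Rpl4, was higher. Rplp1 changed by -1.59 in the Rps19 line and 1.12 in the Rpl5 line, a difference of -2.71 (adjusted p = 0.0214, limma). Rps21 stood at -1.71 against 1.39, and Rpl38 at -2.08 against 2.02. Fech was at 1.42 against -0.66, Gypc at 1.85 against -1.66 and Slc2a1 at 1.62 against -2.22. Without the VavCre Rpl5flox/+ replicate 3 pool 781 genes passed, and all 68 were among them in the same direction.

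Depth ran the opposite way in the Rpl5 line. The VavCre Rpl5flox/+ polysome libraries held 4.80, 19.1 and 1.02 M reads, with Lars2 at 10.3%, 1.37% and 35.1%, and the Rpl5flox/+ libraries 15.4 and 39.8 M, with 4.47% and 0.165%. The widths were 3.99, 2.70 and 8.31 against 1.71 and 2.24. In each line the genotype with the deeper polysome libraries on average had the narrower range of loading. Within genotypes this was mixed. In Rps19flox/+ and in VavCre Rpl5flox/+ the deepest pool was the narrowest. In VavCre Rps19flox/+ the deepest pool (33.6 M) was the widest (1.77) and the shallowest (20.5 M) the narrowest (1.35). In Rpl5flox/+ the 39.8 M pool (2.24) was wider than the 15.4 M pool (1.71). With the polysome reads as a covariate 1 gene, not 68, passed for the difference between the lines, with Rplp1 at -2.61, Rps21 at -2.82 and Rpl38 at -2.95. These changes kept their sign and the calls were lost, and genotype and depth cannot be fully told apart in these pools.

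**Figure D5:**
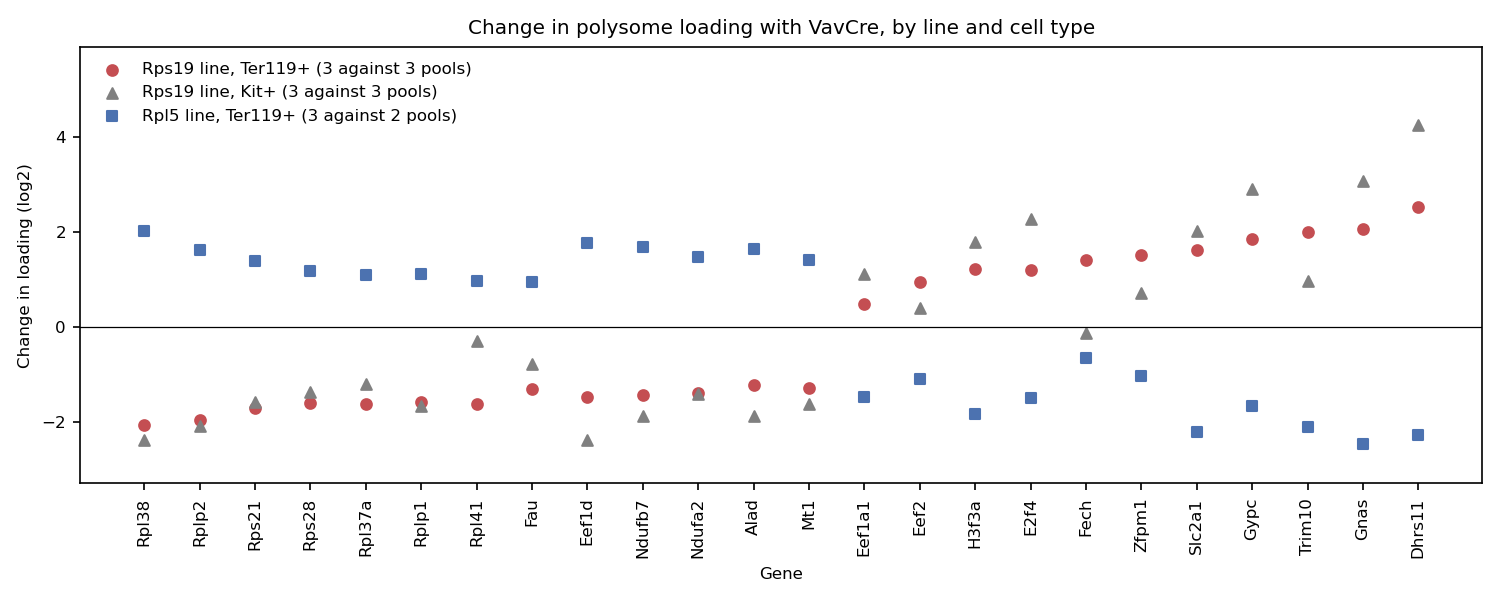
Points are the change in loading with VavCre (log2) of 24 named mRNAs that passed the test of the difference between the lines, in the Rps19 line in Ter119+ cells (red circles) and Kit+ cells (grey triangles) and in the Rpl5 line in Ter119+ cells (blue squares), without error bars. All 24 lie on opposite sides of 0 in the 2 lines in Ter119+ cells, for example Rpl38 at -2.08 against 2.02. A choice of mRNAs by this test favours opposite signs, so that count is not a separate result.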

How the data were processed

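Values for 13449 genes in 45 libraries were deposited on a log2 scale, made by the authors from read counts divided by a size factor per library and a variance-stabilising transformation, as the values themselves show. The build is mm10, per the submitters' processing notes. Aligner and counter: not given in the sources used here. Inverting the transformation gave whole reads for 100% of values (tolerance 0.001), and the lowest value, 2.92263, is 0 reads. Replicate libraries were not copies.

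The 2 fractions of a pool share a batch label, so their difference was taken as loading. A two-sided limma fit (version 3.58.1, R 4.3.3, with eBayes and a trend) was made on the differences of 11 Ter119+ pools of 4 genotypes, with Benjamini-Hochberg adjustment at 0.05. The test was checked on simulated data. Pools of the same number in the 2 genotypes had correlations of 0.214, 0.267 and 0.0705, against -0.261 to 0.104 for unlike numbers. Numbers were not taken as pairs in the main fit, and a fit with a replicate block called 2 genes. The comparison, the gene lists and the genes named (those of the lists and of fixed choice, filled by smallest p) were chosen with earlier results of these data known. The genes filled by smallest p over all genes came only from those with pools apart between genotypes and a group mean of at least 50. Among them were Rplp1, Rplp2, Rps21, Rps28, Rpl37a, Rpl41, Fau, Mt1, Fech, Gypc, Trim10 and Gm49342. The separation of their pools is therefore not a separate result. Symbols in RefSeq numbered 13226. Normalized counts are read counts over size factors. Results of some genes of the fixed choice are not reported here.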

Additional observations from a re-analysis of the deposited data

Results flagged for a closer look

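For 27 of the named genes the change in Ter119+ loading differed between the Rps19 and the Rpl5 line by the test of the difference (limma, adjusted p under 0.05), given here as the Rps19 change minus the Rpl5 change. Ribosomal protein mRNAs were lower in the Rps19 line: Rplp1 by -2.71, Rps21 by -3.10, Rpl37a by -2.74, Rpl41 by -2.59, Rps28 by -2.78, Rplp2 by -3.58, Fau by -2.27 and Rpl38 by -4.10. The same held for Eef1d at -3.24, Alad at -2.86, Mt1 at -2.70, Ndufb7 at -3.12 and Ndufa2 at -2.86. Among red cell genes Fech was higher at 2.08, Gypc at 3.51, Slc2a1 at 3.83, Zfpm1 at 2.54, E2f4 at 2.72 and Trim10 at 4.12. Alad, a heme synthesis gene, was lower, as given above. Alas2 (0.0041) and Hba-a1 (-0.55) did not pass. Also higher were Eef1a1 at 1.96, Eef2 at 2.03, H3f3a at 3.07, Gnas at 4.52 and Dhrs11 at 4.82. Genes with few or no reads in a polysome group gave the widest values, at 12.9 for Gm49342, 9.10 for Srp54b and -12.0 for Gm49395.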

How the results depend on the processing

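The count of 1 gene called became 2 with the libraries rescaled and under a replicate block (each 1 higher and 1 lower) and 2 with the Rps19 line alone (both higher), 130 without the VavCre Rpl5flox/+ replicate 3 pool in the spread, and 1 to 9 when each replicate was left out, 9 without Rps19flox/+ replicate 2. Settings added after seeing the data gave 82 with voom, 58 at a mean of at least 2000 and 595 with the Rps19 line alone at a mean of at least 500. The polysome reads as a covariate and the Lars2 share as a covariate, also added after seeing the data, each gave 1. Rescaling moved the median of all genes from 0.55 to 0.10 and the medians of the small-subunit and large-subunit lists to -1.03 and -0.87, and the Lars2 share as a covariate moved the latter to -0.64. The difference between cell types called 56 genes at log2 of the count plus 1. The difference between the lines called 350 at a mean of at least 500, 781 without the shallow pool and 1 with reads as a covariate.

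Of 1692 values of 82 genes, 1535 kept direction and call, 138 gained a call, 0 lost one and 19 reversed. Only 1 of these genes was called in the main fit, so the others had no call to lose. For them an unchanged call means that the gene passed in neither fit. With rescaling Rpl5 was at -0.30, Alas2 at -0.27, Hbb-bs at -0.35, Gata1 at -0.16 and Bag1 at -0.015. Leaving out 1 pool at a time gave -0.12 to 0.40 for Rpl5, -0.18 to 0.46 for Alas2, -0.052 to 0.38 for Hbb-bs and -0.37 to 0.015 for Hba-a1. With reads as a covariate Alas2 was at -0.24, Hbb-bs at -0.15 and Gata1 at -0.058, and with the Lars2 share -0.30, -0.24, -0.14 and, for Lars2, 1.30. The cause was not tested. The planned edgeR test and the split by protein length were not run. Depth limits what can be seen, with 4.59 M reads in the shallowest polysome library compared.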
